A study of Mus musculus with 8 samples.

Results

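Gene-end peaks are ERRα ChIP-seq peaks that the authors' annotation placed either at a transcription termination site (TTS), around the annotated end of a transcript, or in a 3′ UTR. They were taken as every row of the 4 deposited peak lists whose annotation starts with TTS or 3′ UTR, and numbered 4358 of 126927 peaks. WT muscle held 920 of them (507 TTS and 413 3′ UTR) among 25427 peaks, ERRα 3SA muscle 1772 (974 and 798) among 50647, WT liver 670 (408 and 262) among 21813, and ERRα 3SA liver 996 (610 and 386) among 29040. Chromatin came from male C57BL/6N mice of 2 to 3 months that were either WT or carried the ERRα 3SA phospho-mutant, in which phosphorylated serines of the receptor are replaced by alanine in the whole animal. Each list is 1 library, made from pooled gastrocnemius and soleus of 5 mice or from pooled livers of 2 mice, so genotypes and tissues were compared without a replicate check and without p-values. Shares are given with 95% Wilson intervals, and differences between shares with 95% Newcombe intervals, which cover counting error only, since the peaks of a list share a library. The lists carry no read numbers, so depth is unknown.

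ERRα is an orphan nuclear receptor that binds DNA at the ERR response element (ERRE) and works with the coactivators PGC-1α and PGC-1β on genes of mitochondrial respiration and fuel oxidation. Its binding is usually described at promoters and at distal enhancers, whereas gene ends are where RNA is cleaved and polyadenylated and, in compact parts of the genome, where the next gene begins. The annotation goes by the centre of the called interval, so a gene-end peak is named after the gene that ends there and may lie close to the start of another gene.

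As a check of the tissue labels, 15 and 17 of 20 muscle marker genes had any peak within 20 kb of their TSS in the WT and ERRα 3SA muscle lists, against 9 and 12 in the liver lists. Of 20 liver marker genes, 11 and 13 had one in the WT and ERRα 3SA liver lists, against 4 in WT muscle and 11 in ERRα 3SA muscle. The liver markers thus did not separate ERRα 3SA muscle, the longest list, from WT liver. No share over all genes is set beside these counts.

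Each interval was scanned for the ERRE, taken as TCAAGGTCA on both strands, over its central 300 bp. The sequences below stand at gene-end sites held by all 4 lists with the best ranks, of which 7 of the 15 named carried the element in the window of at least 1 peak. They show the element with 10 bases before and 11 after it, read 5′ to 3′ on its own strand in GRCm38 patch 6, with the ERRE in capitals.
Trim3, first element, chr7:105603333-105603362, minus strand: tcaaggtcagTCAAGGTCAgtgccgtgctg
Trim3, second element, chr7:105603343-105603372, minus strand: aggcctgaaaTCAAGGTCAgtcaaggtcag
Tmub1, chr5:24444807-24444836, minus strand: agacattagtTCAAGGTCAcgcagctggta
Pgpep1, chr8:70647799-70647828, plus strand: ggcaaggaatTCAAGGTCAccctcagccac
A430046D13Rik, chr10:128504556-128504585, minus strand: gaccagaagtTCAAGGTCAccctcaggtac
Lancl1, chr1:67002462-67002491, plus strand: gccaaacgtcTCAAGGTCAgccaaaggtca
Cdc42ep1 and Lgals2, chr15:78850884-78850913, minus strand: ttccccaaggTCAAGGTCAaataaaagaat
The site past the end of Trim3 held the element in tandem, with 1 base between the copies, in the central window of 3 lists. These were ERRα 3SA muscle, WT liver and ERRα 3SA liver, where the peak was annotated intergenic. In WT muscle, where it was a TTS peak, the element lay in the interval but outside the central window. The A430046D13Rik element also lay in the central window of 3 lists, that of Lancl1 in 2, and the others shown in 1. None of the named sites that were bound in a single tissue carried the element in a central window (0 of 5 in muscle and 0 of 5 in liver). Over all gene-end sites bound in both genotypes of a single tissue, 7.45% of 94 in muscle and 21.3% of 178 in liver carried it there. The named sites are too few to differ from those shares.

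Gene-end peaks made up a similar share of every list. They were 3.62% of WT muscle peaks (95% interval 3.40 to 3.85), 3.5% of ERRα 3SA muscle peaks (3.34 to 3.66), 3.07% of WT liver peaks (2.85 to 3.31) and 3.43% of ERRα 3SA liver peaks (3.23 to 3.65). WT liver had the lowest share, with an interval that lay below both muscle intervals, but not among peaks with scores of at least 50, where the shares were 3.53% and 3.44% in the WT and ERRα 3SA muscle lists and 3.45% and 3.26% in the liver lists, with overlapping intervals. TTS peaks outnumbered 3′ UTR peaks in all 4 lists, with shares of 1.87% to 2.1% against 1.2% to 1.62%. The 3′ UTR share was higher in muscle, at 1.62% and 1.58%, than in liver, at 1.2% and 1.33%, and the WT liver interval (1.06 to 1.35) lay below both muscle intervals, whereas the intervals of the TTS shares overlapped throughout. ERRα 3SA muscle held 1.93 times as many gene-end peaks as WT muscle (1.78 to 2.09), beside 1.99 times as many other peaks (1.96 to 2.03). In liver the ratio was 1.49 (1.35 to 1.64) for gene-end peaks and 1.33 (1.30 to 1.35) for other peaks, and among peaks with a score of at least 50 it was 1.5 (1.29 to 1.74) and 1.59 (1.54 to 1.63).

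**Figure D1:**
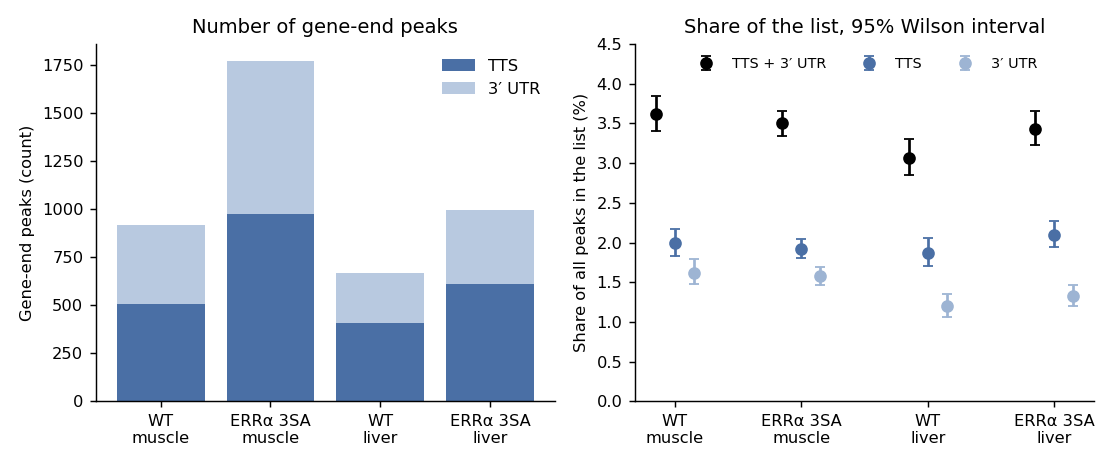
Left, number of gene-end peaks in each of the 4 lists, stacked as TTS and 3′ UTR peaks. Right, their share of all peaks in the list in percent, with 95% Wilson intervals; counts run from 670 to 1772, while the summed share stays between 3.07% and 3.62%.

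The position of the peaks along the gene followed the annotation classes and was alike in the 4 lists. Offsets were measured from the end of the annotated transcript in RefSeq to the interval centre, for 916, 1758, 662 and 986 peaks. TTS peaks had a median offset of 508 bp downstream of the transcript end in WT muscle and 520 bp in ERRα 3SA muscle, and in liver 494 bp in WT and 503 bp in ERRα 3SA, and 96.2% to 97.5% lay between -100 and 1000 bp. For 3′ UTR peaks the medians were -1080, -1060, -942 and -1020 bp, that is, upstream of the end. A few transcripts end elsewhere in the RefSeq version used here, such as that of Rcor1, whose TTS peaks had offsets of -2463 to -2096 bp.

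**Figure D2:**
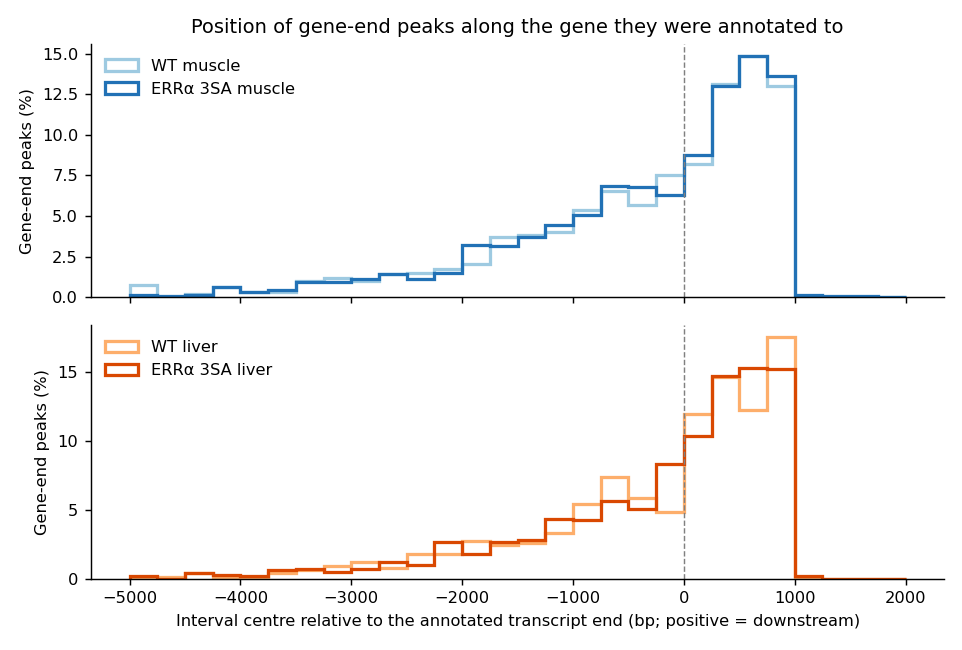
Share of gene-end peaks (%) by the distance of the interval centre from the end of the annotated transcript in bins of 250 bp, positive values being downstream, for the muscle lists (top) and the liver lists (bottom). WT and ERRα 3SA curves rise together towards the 1000 bp after the transcript end; 18, 16, 5 and 7 peaks lie outside the plotted range of -5000 to 2000 bp.

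A part of the TTS peaks sat beside the start of a gene. In WT muscle 82 of 920 gene-end peaks (8.91%) lay within 1 kb of a TSS, in ERRα 3SA muscle 125 of 1772 (7.05%), in WT liver 55 of 670 (8.21%) and in ERRα 3SA liver 96 of 996 (9.64%). These were almost all TTS peaks, of which 16%, 12.2%, 12.7% and 15.1% lay that close, against 0.242%, 0.752%, 1.15% and 1.04% of 3′ UTR peaks. The interval itself covered a TSS for 27, 37, 22 and 23 gene-end peaks, or 2.93%, 2.09%, 3.28% and 2.31%. Other peaks lay within 1 kb of a TSS more often, at 13.5%, 8.14%, 10.7% and 12.6%. They include the promoter peaks, all of which lay that close, so this difference is set in part by the annotation. The interval of that difference held 0 in ERRα 3SA muscle alone (-1.08 points, -2.21 to 0.229), beside -4.63 points in WT muscle (-6.36 to -2.57). Gene-end intervals also covered a TSS less often than other intervals in each list, a difference that is likewise set in part by the annotation. That difference held 0 in WT liver alone (-0.808 points, -1.95 to 0.851), beside -3.01 points in WT muscle (-3.97 to -1.68).

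The gene that ended at the peak was the gene with the nearest TSS in a minority of cases, so the nearest-TSS label and the gene-end label often named different genes. Both were the same for 44.3% of gene-end peaks in WT muscle (41.2 to 47.6) and 45.7% in ERRα 3SA muscle (43.4 to 48.1), and in liver 47.1% in WT (43.3 to 50.9) and 46.7% in ERRα 3SA (43.7 to 49.8). Where they differed and both strands were known, the commonest arrangement was a tandem pair, in which the peak lay upstream of the next TSS on the same strand, with 229 of 505 cases in WT muscle and 460 of 945 in ERRα 3SA muscle, and in liver 162 of 349 in WT and 233 of 511 in ERRα 3SA. Convergent pairs, in which the neighbouring gene is read towards the same end, made up 181, 352, 124 and 181 of these cases. Thus 35.4% to 37.2% were convergent and 45.3% to 48.7% tandem in the 4 lists.

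Ranks of gene-end peaks by Peak Score were close to those of the rest of the list. In WT muscle 11.7% of gene-end peaks stood in the top 10% of the list against 10.6% of the other peaks, a difference of 1.17 points (-0.791 to 3.44). The shares were 10.4% and 10.3% in ERRα 3SA muscle, with a difference of 0.159 points (-1.21 to 1.69). In WT liver they were 12.2% and 10%, with a difference of 2.21 points (-0.0939 to 4.94), and in ERRα 3SA liver 10.2% and 10.3%, with a difference of -0.0250 points (-1.79 to 2.04). Every interval held 0. Within the gene ends, TTS peaks ranked higher than 3′ UTR peaks in muscle, with 14.0% against 8.96% in the top 10% in WT (difference 5.05 points, 0.866 to 9.11) and 12.0% against 8.52% in ERRα 3SA (3.49 points, 0.632 to 6.29). The liver values ran in the same direction, 14.0% against 9.54% and 11.5% against 8.29%, but those intervals held 0 (-0.721 to 9.19 and -0.734 to 6.83). Exon peaks had 7.56%, 7.65%, 9.46% and 7.69% in the top 10%, below the gene-end peaks in each list other than WT liver by an interval that left out 0. Promoter peaks stood higher than gene-end peaks in all 4 lists, with 21.5%, 23.2%, 17.8% and 16.1%.

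**Figure D3:**
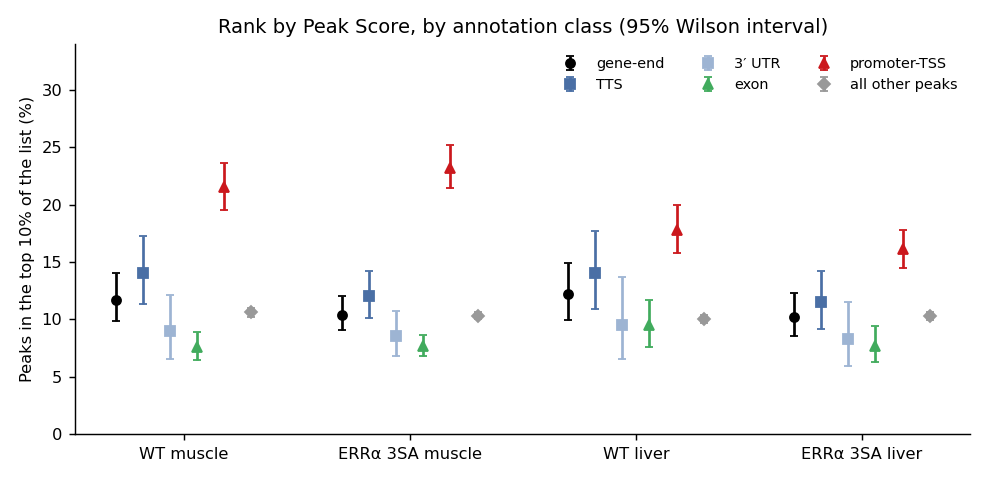
Share of peaks (%) in the top 10% of their list by Peak Score for gene-end peaks, for TTS and 3′ UTR peaks apart, and for exon, promoter-TSS and all other peaks, with 95% Wilson intervals. Gene-end peaks sit at 10.2% to 12.2%, near all other peaks, and promoter-TSS peaks at 16.1% to 23.2%.

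The highest-scoring gene-end peak of any list was at Esrra itself, the gene that encodes ERRα, in ERRα 3SA muscle (chr19:6919626-6923726, score 5343, rank 6 of the list). This interval of 4101 bp was annotated to the TTS of Tex40, since its centre lay 750 bp past the end of Tex40 and 132 bp downstream of the Esrra TSS. WT muscle had separate intervals there, an exon peak with a score of 1544 and a promoter peak with a score of 3342, neither of them a gene-end peak. Both liver lists also held a promoter peak at Esrra, with scores of 4823 in WT (rank 5) and 5938 in ERRα 3SA (rank 3). A further gene-end peak inside Esrra was annotated to the TTS of Mir6990, at chr19:6913361-6914196 in WT muscle (score 572, top 0.488%) and chr19:6913820-6914464 in ERRα 3SA muscle (score 502, top 0.569%). These intervals shared bases, but their centres were too far apart to be counted as partners at 300 bp.

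Lars2, which encodes the mitochondrial leucyl-tRNA synthetase, held a 3′ UTR peak of very high rank in 3 of the 4 lists. Its scores were 665 in WT muscle (chr9:123461829-123462175, top 0.393%), 3335 in ERRα 3SA muscle (top 0.0336%) and 1725 in WT liver (top 0.211%), and the ERRα 3SA liver list had no peak there. The intervals were narrower than the median of their class, at 347, 384 and 336 bp beside a median of 449, 463 and 430 bp over 3′ UTR peaks, and none contained the ERRE.

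Slc25a44, which encodes a mitochondrial carrier of branched-chain amino acids, ended under a TTS peak of score 512 in WT muscle and 1227 in ERRα 3SA muscle (chr3:88409498-88410385). That peak lay 520 and 456 bp downstream of the TSS of Pmf1. In liver the highest gene-end peak of both genotypes was in the 3′ UTR of Lancl1, which encodes a glutathione-binding protein, with a score of 3424 in WT (chr1:67002125-67003190, rank 14) and 4946 in ERRα 3SA (chr1:67002146-67003159, rank 7). Next in ERRα 3SA liver came the ends of Slc25a22, a mitochondrial glutamate carrier (score 1808), and of Anxa9 (score 1422). The remaining peaks among the 5 highest were at the ends of Trim3 and A430093F15Rik in WT muscle, Tmub1 and Zfp383 in ERRα 3SA muscle, and Pgpep1 and Rcor1 in both liver lists, with scores of 426 to 1129, and Slc25a22 in WT liver with a score of 1437.

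Overlap of gene-end peaks with the other genotype was close to that of the whole list. A partner was any peak of the other list whose centre lay within 300 bp. In WT muscle 192 of 920 gene-end peaks (20.9%, 18.4 to 23.6) had a partner in ERRα 3SA muscle, beside 20.2% of all WT muscle peaks. Of the ERRα 3SA muscle gene-end peaks 187 of 1772 (10.6%, 9.21 to 12.1) had one in WT muscle, beside 10.1% of all peaks. In liver 313 of 670 WT gene-end peaks (46.7%, 43.0 to 50.5) and 314 of 996 ERRα 3SA gene-end peaks (31.5%, 28.7 to 34.5) had a partner, beside 42.9% and 32.2% of all peaks. Against the other peaks of the list, the difference was 3.92 points in WT liver (0.110 to 7.76), while the intervals of the other 3 lists held 0. Of the gene-end peaks with a partner, 89.6%, 92.0%, 93.0% and 92.7% had one that was also annotated as gene-end.

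Sharing between tissues was below sharing between genotypes in each list other than ERRα 3SA muscle. Of the WT muscle gene-end peaks 115 (12.5%) had a partner in WT liver, beside 11.7% of all peaks, and of the ERRα 3SA muscle gene-end peaks 218 (12.3%) had one in ERRα 3SA liver, beside 11.5%. For liver, 114 of the WT gene-end peaks (17.0%) and 213 of the ERRα 3SA gene-end peaks (21.4%) had a partner in muscle, beside 13.6% and 20.1% of all peaks. The WT liver share exceeded that of the other peaks by 3.53 points (0.834 to 6.60), and the intervals of the other lists held 0. The excess in WT liver was larger among peaks over 5 kb from any TSS, where 17.3% of gene-end and 10.9% of other peaks had a muscle partner (6.40 points, 3.03 to 10.4) and 45.7% and 39.6% an ERRα 3SA liver partner (6.09 points, 1.30 to 11). At that distance the difference for a partner in the other tissue was 2.39 points in WT muscle (0.0164 to 5.24). It was 1.48 points in ERRα 3SA muscle (-0.195 to 3.40) and 2.82 points in ERRα 3SA liver (-0.282 to 6.29). Up to 1 kb from a TSS, the corresponding differences in WT liver were -4.01 points (-14.5 to 9.18) and -4.38 points (-17.6 to 8.21).

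Peaks with higher scores had a partner more often, at gene ends and in the rest of the lists. In WT muscle 14.3% of gene-end peaks with scores of 30 to 49 had a partner in the other genotype, against 43.0% at 50 to 99, 75.9% from 100 to below 200 and 90.5% at 200 or more. The ERRα 3SA muscle values were 5.79%, 18.1%, 61.1% and 80.0%, those of WT liver 25.1%, 65.3%, 88.2% and 89.5%, and those of ERRα 3SA liver 8.74%, 41.6%, 79.8% and 89.6%. The other peaks had 13.4%, 44.7%, 80.8% and 85.1% in WT muscle, 5.33%, 20.5%, 60.7% and 79.2% in ERRα 3SA muscle, 22.2%, 68.3%, 87.3% and 88.1% in WT liver, and 10.3%, 40.0%, 76.4% and 88.6% in ERRα 3SA liver. The interval of the difference between gene-end and other peaks held 0 in each class of each list. The lowest class held 84.5% and 84.8% of the muscle gene-end peaks and 57.8% and 57.4% of those in liver. At gene-end sites bound in both genotypes, ranks within the lists went together, with a Spearman rho of 0.71 over 226 sites in muscle and 0.74 over 358 in liver, given as a description because the sites of a tissue come from the same pair of libraries.

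When the peaks of the 4 lists were chained into sites with centres within 300 bp, 3571 sites held at least 1 gene-end peak. Most were bound in 1 list, namely 1416 in ERRα 3SA muscle, 660 in WT muscle, 566 in ERRα 3SA liver and 286 in WT liver. These were 39.7%, 18.5%, 15.8% and 8.01% of gene-end sites, beside 39.6%, 18%, 16.1% and 10.4% of the sites without a gene-end peak, and among these 4, only for WT liver did the interval of the difference leave out 0 (-2.43 points, -3.30 to -1.48). Both liver lists without muscle held 178 sites (4.98%, beside 5.02% of other sites) and both muscle lists without liver 94 (2.63%, beside 2.35%). All 4 lists held 97 sites, or 2.72% of gene-end sites (2.23 to 3.30), beside 1.99% of the sites without a gene-end peak (difference 0.726 points, 0.233 to 1.32). A site held by more lists has more chances to include a gene-end peak. The rule by itself thus raises the share of sites of several lists and lowers that of sites of 1 list. Nothing about gene ends is concluded from these differences. Of these 97 sites 69 were gene-end in every list, and 9, 10 and 9 were gene-end in 3, 2 and 1 of the lists, since a small shift of the centre moves an interval into the next class. By gene, 3116 genes ended under a gene-end peak in any list and 82 in all 4. In muscle 281 genes did so in both genotypes, which is 31.4% of the WT genes and 16.7% of those in ERRα 3SA, and in liver 332, which is 51.3% and 35.3%. The corresponding sharing of genes was not computed for other classes of peaks, so these shares are a description alone.

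**Figure D4:**
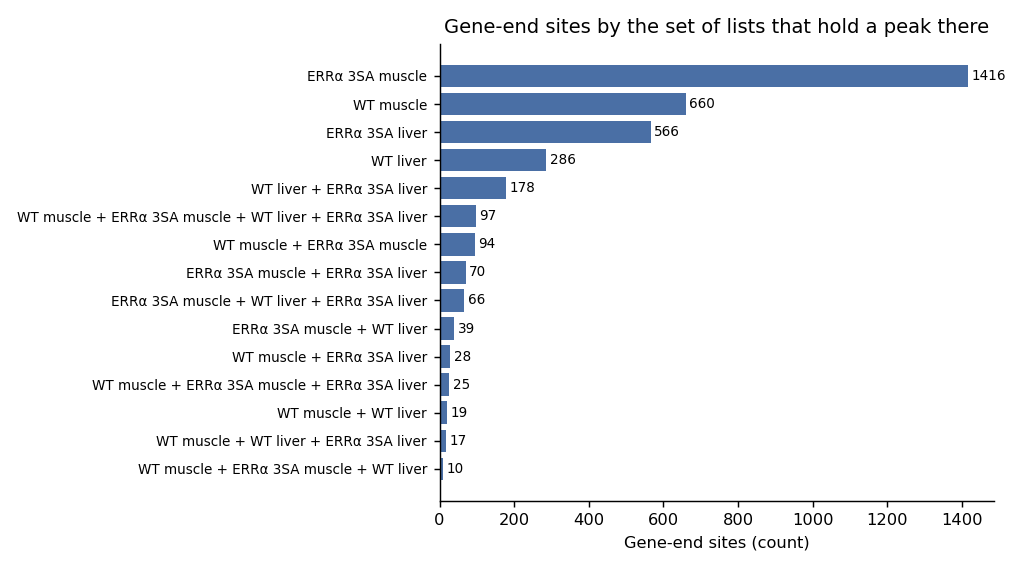
Number of sites with at least 1 gene-end peak by the set of lists that hold any peak at the site. Sites of 1 list dominate, from 1416 for ERRα 3SA muscle to 286 for WT liver, and 97 sites are held by all 4 lists.

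Among the 15 best-ranked sites of all 4 lists, 10 were nearest, in at least 1 list, to the TSS of a gene other than the one that ended there, and 6 lay within 1 kb of such a TSS in every list. Counted by site, 18 of all 97 gene-end sites of 4 lists (18.6%) lay within 1 kb of a TSS. The other sites of 4 lists had 29.1% (difference -10.5 points, -17.3 to -1.45). They include the sites of promoter peaks, so this difference is set in part by the annotation. The nearest TSS was that of the ended gene at 44 of 96 such gene-end sites (45.8%). The end of Trim3, which encodes a ubiquitin ligase, was bound at -3404 to -3232 bp from the TSS of Hpx, the gene of the plasma heme carrier hemopexin. Its scores were 655 in WT muscle (chr7:105603086-105603954) and 1929 in ERRα 3SA muscle, and in liver 1087 in WT and 1167 in ERRα 3SA, within the top 0.463% of each list. The TTS class was given in WT muscle alone, where the centre lay 943 bp past the end of Trim3, and the other lists called the same site intergenic.

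The 6 sites beside another start paired Atat1 with 2310061I04Rik (a promoter peak in ERRα 3SA muscle), Slc25a22 with Cend1, Tmub1 with Fastk, Nt5c1b with Rdh14, Hgs with Mrpl12 and Mir688 with Atp5g2. Slc25a22 had scores of 276 in WT muscle (chr7:141428560-141429412) and 685 in ERRα 3SA muscle, and in liver 1437 in WT and 1808 in ERRα 3SA, 253 to 501 bp downstream of the Cend1 TSS. Tmub1 had 375, 863, 488 and 858, at 484 to 733 bp from the TSS of Fastk, a member of a family of mitochondrial RNA-binding proteins. Hgs was paired with Mrpl12, a protein of the mitochondrial ribosome, with scores of 108, 214, 338 and 527 and its centre 34 to 475 bp from the Mrpl12 TSS. The WT peaks of that site were TTS peaks, while ERRα 3SA muscle had an intron peak and ERRα 3SA liver a promoter peak. Mir688 ended beside Atp5g2, a subunit of the mitochondrial ATP synthase, with scores of 290, 320, 259 and 580 and a centre 150 to 298 bp from that TSS. There the liver peaks were TTS peaks and the muscle peaks were annotated as intron. The scores were higher in ERRα 3SA than in WT of the same tissue at each of these 4 sites, but scores were not scaled between libraries and the lists differ in length.

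The other named sites lay farther from a start. Pgpep1, a peptidase gene, was bound in its 3′ UTR with scores of 168 in WT muscle (chr8:70647235-70648010) and 502 in ERRα 3SA muscle, and in liver 1074 in WT and 1129 in ERRα 3SA, 11826 to 12360 bp from its TSS. Lancl1 had 90 and 181 in the muscle lists and 3424 and 4946 in the liver lists, from the top 5.26% in WT muscle to the top 0.0241% in ERRα 3SA liver. Rcor1, which encodes the corepressor CoREST, had scores of 157, 204, 941 and 1098, at -52931 to -52564 bp from the nearest TSS, that of Traf3. Srcin1, Orai1, A430046D13Rik and the adjoining ends of Cdc42ep1 and Lgals2 also belonged to the set, with worst ranks between the top 3.10% and the top 6.07%. The Orai1 site was a 3′ UTR peak in ERRα 3SA liver and an exon peak in the other lists.

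Of the gene-end sites of both genotypes in a single tissue, the 5 best-ranked of each tissue were named. In muscle, Dysf, the gene of the membrane repair protein dysferlin, was bound at its end with scores of 275 in WT (chr6:84210294-84211931) and 543 in ERRα 3SA. Hspb7, a small heat shock protein of muscle, had 221 and 260 (chr4:141424991-141426441 in WT), and Stard7, a lipid transfer protein of mitochondria, had 363 and 308 (chr2:127297183-127298017 in WT). Spag7 and Dand5 were the others of the 5 named. For liver they were Ushbp1, whose peak lay at -1575 and -1461 bp from the TSS of the nuclear receptor gene Nr2f6 (scores 761 and 950, chr8:71382944-71384110 in WT), Tmem50a (712 and 884), Dhrs7 (663 and 1057), Cnpy3, with the glycine N-methyltransferase gene Gnmt as the nearest start (687 in both), and Cda, with Pink1 as the nearest start (511 and 398, the WT interval being annotated intergenic). The named muscle sites were all nearest to the TSS of the gene that ended there, as against 2 of the 5 named liver sites. Over all gene-end peaks the tissues were close, with 44.3% and 45.7% in WT and ERRα 3SA muscle and 47.1% and 46.7% in liver.

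Gene-end peaks that overlapped no interval of the other genotype numbered 657 of 920 in WT muscle and 1516 of 1772 in ERRα 3SA muscle, and in liver 318 of 670 in WT and 640 of 996 in ERRα 3SA. These were 71.4%, 85.6%, 47.5% and 64.3% of them, beside 74.3%, 87.1%, 52.1% and 64.0% of all peaks of the lists. Against the other peaks the differences were -3.02 points (-6.07 to -0.140), -1.62 points (-3.36 to -0.0319), -4.75 points (-8.56 to -0.904) and 0.308 points (-2.77 to 3.28). Gene-end intervals also had larger median widths than other intervals (455, 476, 446 and 425 bp beside 434, 418, 410 and 412 bp), and the part of width in this overlap was not tested. Among unshared peaks in WT muscle the highest were at Pdgfa (score 108, top 4.16%), Slc22a16 and Fam131a (81 each). In ERRα 3SA muscle they were at Arpin (237, top 1.63%, chr7:79924939-79925294), Steap4 (160) and 6430548M08Rik (129), and each of these 3 sites also held a liver peak. In WT liver Lars2 (1725) stood far above Iah1 (97) and Mir1948 (89). In ERRα 3SA liver Tas1r1 (174), A430078G23Rik (140) and Nop16 (135) led, all outside the top 10% of the list.

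The share of gene-end peaks with the ERRE was close to that of the rest of each list and was higher in liver than in muscle. It was present in 36 of 920 WT muscle gene-end peaks (3.91%, 2.84 to 5.37), 72 of 1772 in ERRα 3SA muscle (4.06%, 3.24 to 5.09), 89 of 670 in WT liver (13.3%, 10.9 to 16.1) and 132 of 996 in ERRα 3SA liver (13.3%, 11.3 to 15.5). The other peaks had 3.93%, 4.29%, 14.7% and 15.3%, and the interval of the difference held 0 in each list. Windows 5 kb to either side of the gene-end peaks held the element in 0.924%, 0.903%, 0.896% and 1.15% of cases, so the peaks had 4.24, 4.5, 14.8 and 11.5 times that share. Promoter peaks of liver held the element less often than gene-end peaks in ERRα 3SA, with a difference of 4.63 points (2.25 to 7.16), and in WT the difference was 2.15 points (-0.864 to 5.38). Exon peaks held it less often than gene-end peaks in all 4 lists, at 1.95%, 2.55%, 8.28% and 7.6%. At 1 to 5 kb from a TSS gene-end peaks carried it less often than other peaks, with 9.55% against 16.7% in WT liver (-7.14 points, -10.8 to -2.09) and 3.43% against 5.68% in ERRα 3SA muscle (-2.25 points, -3.70 to -0.0954). In WT muscle and ERRα 3SA liver the differences at that distance were -2.37 points (-4.03 to 0.725) and -3.71 points (-7.21 to 0.671).

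Gene-end peaks with a partner in the other genotype carried the ERRE more often than those without. The shares were 10.4% and 2.20% in WT muscle (difference 8.22 points, 4.4 to 13.4), 11.8% and 3.15% in ERRα 3SA muscle (8.61 points, 4.62 to 14.1), 22.4% and 5.32% in WT liver (17.0 points, 11.9 to 22.3) and 24.5% and 8.06% in ERRα 3SA liver (16.5 points, 11.5 to 21.8). Peaks with a partner also had higher scores, with medians of 43, 57, 75 and 112 against 36, 36, 38 and 41.5, and the part of score in this difference was not tested. Counted by site at the best-ranked peak, the element was present at 2.80% of gene-end sites of 1 list (2.26 to 3.46), 12.9% of those of 2 lists (10 to 16.4), 17.8% of those of 3 (11.9 to 25.7) and 22.7% of those of all 4 (15.5 to 32.0). The other sites had 3.61%, 15.9%, 24.5% and 21.5%, and the difference for gene-end sites of 1 list was -0.807 points (-1.36 to -0.133). Taking the window of any peak of the site raised the share at sites of all 4 lists to 38.1%.

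**Figure D5:**
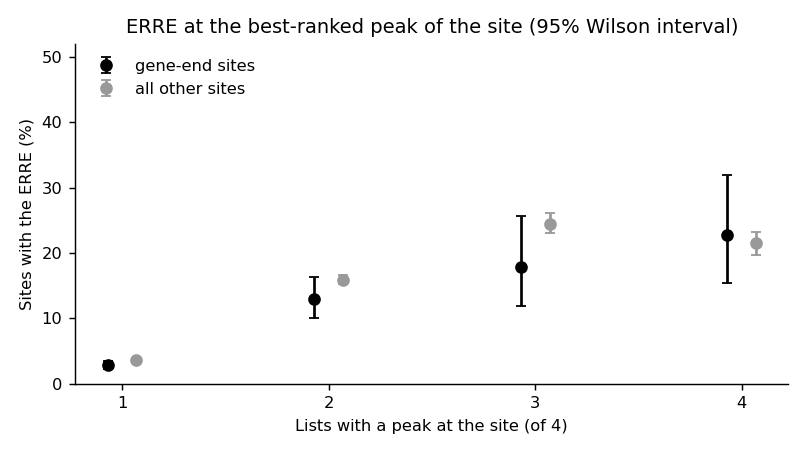
Share of sites (%) with the ERRE in the central 300 bp of their best-ranked peak, by the number of lists that hold a peak at the site, for gene-end sites and all other sites, with 95% Wilson intervals. Gene-end sites go from 2.80% in 1 list to 22.7% in all 4, and other sites from 3.61% to 21.5%.

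Genes with a gene-end peak also had a peak at their own start more often than other genes. Of the protein-coding genes with a gene-end peak away from their own TSS, 191 of 820 in WT muscle (23.3%, 20.5 to 26.3) and 414 of 1531 in ERRα 3SA muscle (27.0%, 24.9 to 29.3), and in liver 92 of 577 in WT (15.9%, 13.2 to 19.2) and 211 of 848 in ERRα 3SA (24.9%, 22.1 to 27.9) had another peak within 1 kb of it. Over all 21887 protein-coding genes of RefSeq the shares were 13.7%, 16.2%, 9.26% and 14.4%. Against the genes without such a gene-end peak the difference was 9.97 points (7.17 to 13.0), 11.6 points (9.42 to 14.0), 6.87 points (4.08 to 10.1) and 10.9 points (8.06 to 13.9). Gene length, gene density and chromatin state were not matched in this comparison.

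Genes of metabolism and of the tissues' own programmes were sought by the gene that ended at the peak. Over all protein-coding genes, 3.76% ended at a gene-end peak in WT muscle and 7.02% in ERRα 3SA muscle, and in liver 2.65% in WT and 3.89% in ERRα 3SA, and 12.9% in any list. Of the 79 genes of the respiratory chain and ATP synthase 3, 5, 1 and 4 did so, in all 11 genes or 13.9% (7.96 to 23.2) in any list. Of 28 genes of the TCA cycle and pyruvate entry the pyruvate carboxylase gene Pcx did so, in ERRα 3SA liver. Of 43 genes of fatty acid uptake and oxidation 2, 2, 3 and 3 did so, and of 41 genes of glycolysis, lactate and glycogen 4, 5, 2 and 4. Nuclear receptors and coregulators gave 7, 8, 2 and 3 of 47 genes, the 17 clock genes 3, 2, 1 and 3, the 47 sarcomere and calcium handling genes 6, 6, 0 and 4, and the 41 hepatic genes 0, 0, 2 and 4. In any list 1 of the TCA cycle genes (3.57%, 0.633 to 17.7), 7 of fatty acid oxidation (16.3%, 8.12 to 30) and 8 of glycolysis (19.5%, 10.2 to 34) did so. The nuclear receptor list had 11 (23.4%, 13.6 to 37.2), the clock list 6 (35.3%, 17.3 to 58.7), the sarcomere list 12 (25.5%, 15.3 to 39.5) and the hepatic list 5 (12.2%, 5.32 to 25.5). The intervals of the nuclear receptor, clock and sarcomere lists lay above the 12.9% of all protein-coding genes, but no enrichment is concluded from this. The 8 lists were compared with no allowance for their number and were chosen with earlier results of these data known. Some of the genes counted, such as Per2, Rxra and Tnnc2, had peaks at the lowest score of 30 only. Gene length and density were not matched.

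Few genes of these lists ended under a high-scoring peak. Mb, the gene of myoglobin, had a TTS peak in both muscle lists, with scores of 118 in WT (chr15:77014257-77015639) and 225 in ERRα 3SA (chr15:77014760-77015512), and none in liver. Tpm2, a tropomyosin, had 3′ UTR peaks of 42 and 119 in WT and ERRα 3SA muscle whose centres were not within 300 bp. Cox8b, the muscle form of a cytochrome c oxidase subunit, had a gene-end peak in ERRα 3SA muscle alone, a TTS peak of 139 at chr7:140897522-140900563. This wide interval also reached the TSS of Cox8b itself, 1404 bp from its centre. It had no partner within 300 bp in WT muscle. Whether WT muscle held a peak of a different class at this gene was not tested. Atp5d, an ATP synthase subunit, had TTS peaks of 30 in WT muscle and 181 in ERRα 3SA muscle, at -1675 and -1669 bp from the TSS of Midn.

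Among the glycolytic and lactate genes, Eno2, an enolase gene, had a TTS peak in all 4 lists, with scores of 57 in WT muscle and 91 in ERRα 3SA muscle, and in liver 177 in WT and 143 in ERRα 3SA (chr6:124758776-124759734). The peaks lay at -2866 to -2575 bp from the Atn1 TSS. Ldha, whose product interconverts pyruvate and lactate, had TTS peaks of 62, 55 and 37 in WT muscle, ERRα 3SA muscle and ERRα 3SA liver, and none in WT liver. Pck1, the gene of the cytosolic enzyme that opens gluconeogenesis, had liver peaks only, a TTS peak of 204 in ERRα 3SA and peaks of 75 and 33 in WT. Gys1, the muscle glycogen synthase gene, had a TTS peak of 30 in ERRα 3SA muscle and 55 in ERRα 3SA liver.

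Among nuclear receptors, Esrrb, the gene of the related receptor ERRβ, had a 3′ UTR peak in all 4 lists with scores of 73 in WT muscle and 65 in ERRα 3SA muscle, and in liver 69 in WT and 37 in ERRα 3SA (chr12:86519300-86519946 in the last), 97979 to 98341 bp from its TSS, and the ERRE lay in the interval in each list. Ppara, the receptor that drives hepatic fatty acid oxidation, had 3′ UTR peaks of 44 and 91 in WT and ERRα 3SA liver and a TTS peak of 30 in WT muscle. Nr0b2, the corepressor SHP, had 56 and 68 in the liver lists and 30 in WT muscle. Cpt2, of mitochondrial fatty acid import, had TTS peaks of 44 and 37 in WT and ERRα 3SA liver. Ncoa2 and Rxra had peaks of 30 to 36 in both muscle lists, Hnf4a had peaks of 36 and 37 in the ERRα 3SA lists, and Atp5a1 had 38 and 32 in the liver lists.

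Csnk1e, a kinase of the circadian clock, had gene-end peaks in all 4 lists, spread over its 3′ UTR and beyond. The highest were 162 in WT muscle (chr15:79422189-79422952) and 308 in ERRα 3SA muscle (chr15:79421302-79423029), and in liver 56 in WT and 152 in ERRα 3SA. Tcap, the sarcomeric protein telethonin, had peaks of 81 in WT muscle and 49 in ERRα 3SA liver, and Atp2a2, a calcium pump of the sarcoplasmic reticulum, of 36 and 49 in the same lists. Tat, the hepatic tyrosine aminotransferase, had TTS peaks in liver of 38 for WT and 111 for ERRα 3SA (chr8:109999815-110000485). The other list genes described here by their counts alone had peaks with scores under 100.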

How the data were processed

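The members and gene lists were chosen with earlier results of these data known. The authors used Trimmomatic 0.36 for trimming and BWA 0.7.12 for mapping to mm10, removed PCR duplicates with Picard 2.0.1, called peaks against input with MACS2 2.1.1.20160309 and annotated them with HOMER 4.9.1, per the labels' processing notes and the paper. The labels give 3 pooled ChIPs per sample and the paper's methods give 4. Peak scores were deposited as whole numbers from 30 upwards with no stated unit and were used to rank peaks within a list and, at minimums of 50 and 100, to filter them. Equal scores took the best rank. CpG and GC contents were deposited as fractions, and distances to the TSS in bp. The 4 input samples hold no lists used here.

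Sequences and transcript ends came from RefSeq on GRCm38 patch 6. Recomputed GC contents equalled the deposited fractions within 0.001 for 25426, 50645, 21811 and 29037 peaks of the WT muscle, ERRα 3SA muscle, WT liver and ERRα 3SA liver lists, so mm10 coordinates were read on it. Ended genes were found from the annotated transcript for all but 0, 1, 1 and 1 gene-end peaks. All genes of the 8 gene lists matched a RefSeq symbol.

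Partners and sites used centres within 300 bp. The reversed motif ACTGGAACT and windows shifted by 5000 bp were set beside the ERRE. Overlap, chaining and motif search were tested on simulated data. Named genes were the 15 best-ranked sites of all 4 lists, the 5 highest peaks of each list, the 5 best-ranked sites bound in both genotypes of a single tissue, the 3 highest peaks of each list with no overlap in the other genotype, and list genes ending under peaks of at least 2 lists or a score of at least 100. Some items that this rule names are not reported here. Alternatives were score minimums, lists of equal length, TTS or 3′ UTR peaks alone, peaks over 1000 bp from a TSS, other overlap rules, other top shares, TNAAGGTCA, AAGGTCA and the whole interval. The tools were samtools 1.23.1 and Python 3.11.15 with pysam 0.24.0, scipy 1.17.1, pandas 2.3.3, matplotlib 3.10.9 and numpy 2.4.6.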

Additional observations from a re-analysis of the deposited data

Results flagged for a closer look

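The share of gene-end peaks among all peaks moved in opposite directions between genotypes in the 2 tissues, from 3.62% in WT to 3.5% in ERRα 3SA muscle and from 3.07% in WT to 3.43% in ERRα 3SA liver. The share of gene-end peaks whose nearest TSS belonged to the gene that ended there did the same, from 44.3% to 45.7% in muscle and from 47.1% to 46.7% in liver. With 1 library per group these differences between tissues were not tested, and in each pair the Wilson intervals of WT and ERRα 3SA overlapped.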

How the results depend on the processing

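Of the values under other settings, 74 stayed within 1.5 times for the count of sites or within the interval of the reported share, and 100 moved. Where 4 values follow each other they stand for WT muscle, ERRα 3SA muscle, WT liver and ERRα 3SA liver. The share of gene-end peaks among all peaks was 4.22% in WT muscle, 3.81% in ERRα 3SA muscle and 3.53% in WT liver with scores of at least 100, 1.99%, 1.92%, 1.87% and 2.1% for TTS peaks alone, 1.62%, 1.58%, 1.2% and 1.33% for 3′ UTR peaks alone, 3.45% in WT liver with scores of at least 50. The share with a partner in the other genotype was 51.0%, 27.4%, 70.3% and 46.7% with scores of at least 50, 76.0%, 39.4%, 81.2% and 53.7% with scores of at least 100, 17.0% in WT muscle, 17.5% in ERRα 3SA muscle and 39.1% in ERRα 3SA liver with lists of equal length, 11.2%, 5.64%, 28.1% and 18.9% with centres within 100 bp, 33.5%, 17.7%, 56.0% and 38.3% with centres within 1000 bp, 28.6%, 14.4%, 52.5% and 35.7% with at least 1 shared base, 51.0% in WT liver for TTS peaks alone, 40.1% in WT liver for 3′ UTR peaks alone. The share with a partner in the other tissue was 40.6% in WT muscle, 35.6% in ERRα 3SA muscle and 20.8% in WT liver with scores of at least 50, 44.0% in WT muscle and 43.4% in ERRα 3SA muscle with scores of at least 100, 5.98%, 6.72%, 7.76% and 11.6% with centres within 100 bp, 16.8%, 18.7%, 23.0% and 32.8% with centres within 1000 bp, 15.3%, 15.8%, 21.5% and 28.6% with at least 1 shared base, 20% in ERRα 3SA muscle with lists of equal length, 14.0% in ERRα 3SA muscle for TTS peaks alone, 10.3% in ERRα 3SA muscle for 3′ UTR peaks alone. The number of gene-end sites in all 4 lists was 57 with scores of at least 50, 25 with scores of at least 100, 29 with centres within 100 bp. The share in the top 10% was 14.0% in WT muscle and 12.0% in ERRα 3SA muscle for TTS peaks alone, 8.96%, 8.52%, 9.54% and 8.29% for 3′ UTR peaks alone, 5.98%, 5.59%, 5.52% and 5.02% for the top 5%, 0.870%, 1.30%, 1.04% and 1.2% for the top 1%. The share with the ERRE was 6.99%, 11.5%, 21.9% and 19.6% with scores of at least 50, 6.00%, 14.1%, 18.8% and 22.0% with scores of at least 100, 5.54%, 6.66%, 18.1% and 18.5% for TNAAGGTCA, 14.1%, 15.6%, 36.9% and 37.6% for AAGGTCA, 6.85%, 7.51%, 19.6% and 18.4% in the whole interval, 6.34% in ERRα 3SA muscle with lists of equal length, 10.9% in ERRα 3SA liver for 3′ UTR peaks alone. The share whose nearest TSS belonged to the ended gene was 50% in WT muscle with scores of at least 100, 48.5% in ERRα 3SA muscle for TTS peaks alone, 42.4% in ERRα 3SA muscle and 42.7% in WT liver for 3′ UTR peaks alone. Fewer peaks of low score remain under a score minimum, and a wider distance or a shorter motif admits more matches. TTS or 3′ UTR peaks alone are parts of the gene-end share of a list, and the top 5% and top 1% lie inside the top 10%. Those shares are therefore lower by definition. The cause of the other changes was not tested. No paired analysis was possible because each group holds 1 sample, and for the same reason no replicate could be left out. The depth of the libraries is unknown, so a peak in 1 list may have gone uncalled in another.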

Other observations

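Gene-end intervals had higher median GC contents than the other intervals of their list, namely 54.1%, 54.2%, 51.5% and 51.7% in WT muscle, ERRα 3SA muscle, WT liver and ERRα 3SA liver, beside 53.4%, 53.0%, 50.2% and 50.4%.

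Some of the transcripts that ended at TTS peaks were non-coding, namely 79, 152, 70 and 87 in the 4 lists, and of these peaks 30, 56, 27 and 33 were annotated to the end of a microRNA. A gene rarely had more than 1 gene-end peak in a list, which happened for 25 of 895, 81 of 1684, 22 of 647 and 53 of 940 ended genes. Within gene-end peaks that carried the ERRE, the copy nearest to the centre lay a median of 87.0, 68.5, 50 and 62.0 bp away.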
